A study of Mus musculus with 24 samples.

Results

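The region described here is the 0.98 Mb stretch of mouse chromosome 15 that begins 0.02 Mb downstream of the start of Myc and ends 1 Mb downstream of it, chr15:62005341-62985341 in the mm10 build. It was taken by distance alone: every restriction fragment with its midpoint in that stretch was a member, whatever its contact count. Of the 11106 fragments listed with at least 1 Myc contact in either genotype, 1933 lay in the stretch. Of these, 1837 were listed in Ebf1-KO cells, 1390 in wild-type (WT) cells and 1294 in both. The compared cells were C57BL6/J fetal liver pro-B cells that lacked Ebf1 (Ebf1-KO, 4 samples) or were wild type (3 samples). Both genotypes were expanded in culture on OP9 stromal cells, with interleukin-7, FLT3 ligand and KIT ligand as added factors. Their contacts were measured by PLAC-seq, in which cross-linked chromatin is cut and ligated as in Hi-C and ligation products that carry the promoter mark H3K4me3 are enriched with an antibody. The samples of a genotype were pooled by the authors into 1 profile of contacts with the Myc promoter, and how many fetuses gave cells was not given in the sources used here. RNA came from other samples of fetal liver pro-B cells of the same background and culture that lacked Ebf1, lacked Pax5 (Pax5-KO) or were wild type. These also carried the retroviral vector pMiG: empty, Ebf1 or Pax5 vector in both knockouts, and empty vector in WT cells. EBF1 binding was mapped in 230-238, an Abelson-transformed pre-B cell line, and not in the fetal liver cells.

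Myc encodes a transcription factor that promotes cell growth and proliferation, and its promoter is reached by enhancers spread over a long, gene-poor stretch downstream. The first gene in that direction is Pvt1, a long non-coding RNA gene that is often amplified together with MYC in human tumours and whose promoter has been described in human cells as competing with that of MYC for enhancers. EBF1 is a transcription factor that commits lymphoid progenitors to the B lineage, and together with PAX5 it controls most early B-cell genes.

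The stretch holds few annotated genes. RefSeq places 6 in it: Pvt1, from 62037986 to 62260215; the pseudogene Macroh2a3 inside Pvt1; the long non-coding RNA genes Gm41333 and Gm30113; the small nucleolar RNA gene Gm22521; and the pseudogene Tsg101-ps. Pvt1 begins 52.6 kb downstream of the Myc start, Gm41333 684 kb and Gm30113 969 kb. The start-site sequences of the 2 distal long non-coding RNA genes are shown as annotated starts in the far portion of the stretch, beyond Pvt1, where the contact values below serve as a comparison for those at the Pvt1 start. Each is the plus-strand RefSeq sequence of the GRCm38.p6 assembly from 250 bases before to 50 bases after the start, chr15:62668934-62669233 for Gm41333 and chr15:62953966-62954265 for Gm30113.
Gm41333: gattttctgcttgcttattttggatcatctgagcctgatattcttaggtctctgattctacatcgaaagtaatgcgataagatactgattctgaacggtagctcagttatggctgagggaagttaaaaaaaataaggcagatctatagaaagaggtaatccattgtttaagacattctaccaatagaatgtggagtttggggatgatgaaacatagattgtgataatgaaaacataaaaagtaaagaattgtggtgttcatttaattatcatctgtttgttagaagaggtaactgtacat
Gm30113: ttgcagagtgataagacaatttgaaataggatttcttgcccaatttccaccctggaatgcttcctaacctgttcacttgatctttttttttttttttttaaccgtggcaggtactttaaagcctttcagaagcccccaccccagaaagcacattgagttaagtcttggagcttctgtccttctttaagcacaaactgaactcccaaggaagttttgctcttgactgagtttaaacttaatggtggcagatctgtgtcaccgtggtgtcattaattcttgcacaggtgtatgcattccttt
Capitals would mark a match to CCCNNGGG, the palindromic core that EBF factors recognise, which reads the same on both strands. Neither sequence holds one. Of 32851 promoters of the same 300 bases 13.7% do, so finding none in 2 sequences does not set these starts apart. GC content was 33.7% for Gm41333 and 40.7% for Gm30113, against a median of 52.7% over those promoters. The nearest EBF1 peak lay 24.6 kb from the Gm41333 start and 42.3 kb from the Gm30113 start. Within 5 kb of Gm41333 there were 54 contacts in Ebf1-KO cells and 29 in WT cells, a ratio of shares of 0.972 with an interval of 0.619 to 1.52. Within 5 kb of Gm30113 there were 69 contacts in Ebf1-KO cells and 34 in WT cells, with a ratio of 1.06 (0.703 to 1.60).

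The profiles differed in depth. Ebf1-KO cells had 17349 listed contacts, of which 15748 lay on chromosome 15, and WT cells had 9143, of which 8147 lay on chromosome 15. Fragments on 15 chromosomes were listed. Contacts within 20 kb of the Myc start, 879 in Ebf1-KO cells and 389 in WT cells, were set aside, so that shares are percentages of 14869 contacts in Ebf1-KO cells and 7758 in WT cells. In the RNA libraries with empty vector, the gene Ebf1 itself had 244 and 282 CPM (counts scaled to the size of the library) in Ebf1-KO cells, against 966 and 1102 CPM in WT cells. Which exons the deletion removed was not given in the sources used here. The 8 B-cell progenitor markers, with Ebf1 among them, summed to 479 and 530 CPM in Ebf1-KO cells. They summed to 5004 and 5110 CPM in WT cells, with none at 0. Ebf1 thus made up a larger part of the sum in Ebf1-KO cells than in WT cells. In these bulk samples fewer cells of a type and less RNA per cell cannot be told apart. The 4 myeloid markers summed to 228 to 271 CPM in Ebf1-KO cells against 23.8 to 24.8 CPM in WT cells, with none at 0. The 4 T-cell markers summed to 130 to 161 CPM in Ebf1-KO cells against 6.98 to 9.22 CPM in WT cells, where Cd3e and Cd3g were at 0. The 3 markers of natural killer and innate lymphoid cells summed to 129 to 164 CPM in Ebf1-KO cells against 0.725 to 1.26 CPM in WT cells. The 3 stroma markers stayed between 0.320 and 0.345 CPM in Ebf1-KO cells and between 0.207 and 0.458 CPM in WT cells, with Col3a1 at 0 in both. The part of these genes or cells in the contact differences was not tested.

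The question for the stretch was whether the Myc promoter spends a different share of its contacts there when Ebf1 is absent. It held 7538 contacts in Ebf1-KO cells and 3086 contacts in WT cells. As a share of contacts that is 50.7% in Ebf1-KO cells (95% exact binomial interval 49.9 to 51.5) and 39.8% in WT cells (38.7 to 40.9). The share was thus higher in Ebf1-KO cells by a ratio of 1.27, with a counting interval of 1.23 to 1.32. The intervals cover counting error only, and with 1 pooled profile per genotype the spread between samples is unknown and no test was possible.

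Most other regions of chromosome 15 had a lower share in Ebf1-KO cells. From 1 to 2 Mb downstream the share was 25.2% in Ebf1-KO cells and 28.6% in WT cells, a ratio of 0.880 (0.842 to 0.920). From 0.02 to 1 Mb upstream it was 6.93% in Ebf1-KO cells and 11.2% in WT cells, a ratio of 0.621 (0.570 to 0.677). Beyond 2 Mb it was 15.0% in Ebf1-KO cells and 18.3% in WT cells. The interval of the downstream stretch overlapped none of these intervals. From 1 to 2 Mb upstream, with 329 contacts in Ebf1-KO cells and 164 in WT cells, the share was 2.21% in Ebf1-KO cells and 2.11% in WT cells. Its ratio of 1.05 (0.870 to 1.26) did not differ from 1 beyond counting error, and its wide interval overlapped that of the stretch. The stretch held 7.31 times as many contacts as its upstream mirror in Ebf1-KO cells and 3.56 times as many in WT cells. Shares of a fixed total must trade off against each other. When only contacts from 0.02 to 2 Mb downstream formed the total, a choice made after seeing the data, the ratio was 1.15 (1.12 to 1.18).

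**Figure D1:**
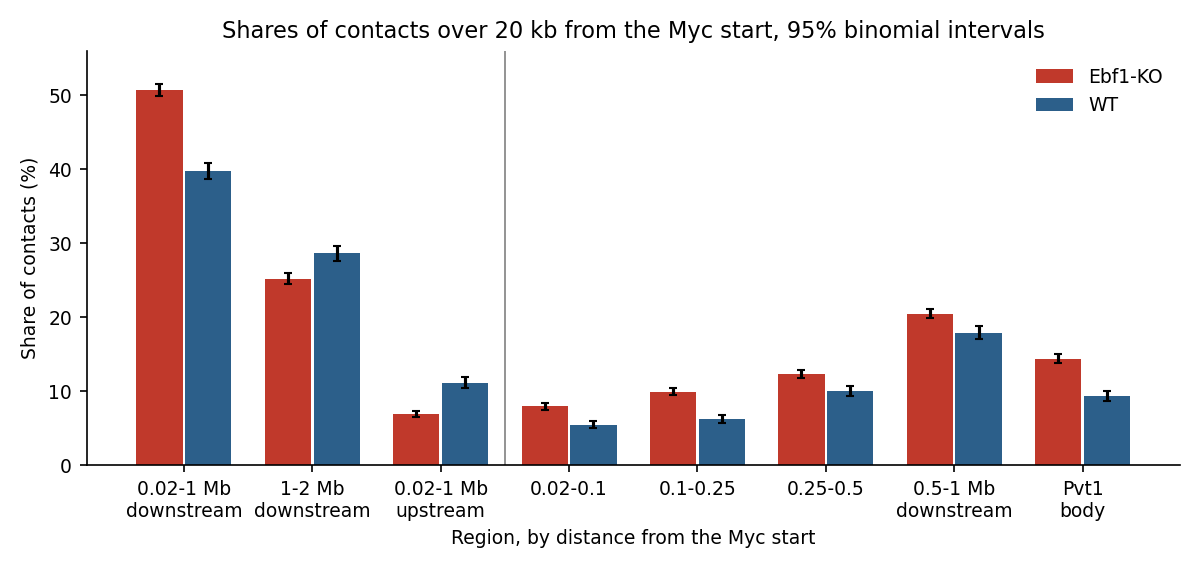
Share of Myc contacts in percent (y axis) by region (x axis) in Ebf1-KO cells (red) and WT cells (blue), with 95% exact binomial intervals as error bars. The stretch from 0.02 to 1 Mb downstream holds 50.7% in Ebf1-KO cells and 39.8% in WT cells, while the other regions left of the grey line are lower in Ebf1-KO cells; the bars right of it are subdivisions of the stretch.

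The increase was largest near Myc and in Pvt1, and smallest in the far end. From 0.02 to 0.1 Mb the share was 7.96% in Ebf1-KO cells and 5.49% in WT cells, a ratio of 1.45 (1.30 to 1.61). From 0.1 to 0.25 Mb it was 9.91% in Ebf1-KO cells and 6.29% in WT cells, a ratio of 1.58 (1.43 to 1.74). From 0.25 to 0.5 Mb it was 12.3% in Ebf1-KO cells and 10.1% in WT cells, with a ratio of 1.22 (1.13 to 1.32). From 0.5 to 1 Mb it was 20.5% in Ebf1-KO cells and 17.9% in WT cells, with a ratio of 1.14 (1.08 to 1.21). The intervals of the nearer pair of classes lay wholly above that of the farthest class. All 4 ratios were above 1.

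The body of Pvt1, as the count table places it (62039257 to 62250976, transcript NR_132746), held 2142 contacts in Ebf1-KO cells and 722 in WT cells. That is 14.4% of contacts in Ebf1-KO cells (13.8 to 15.0) and 9.31% in WT cells (8.67 to 9.97), a ratio of 1.55 (1.43 to 1.68). The rest of the stretch held 36.3% in Ebf1-KO cells and 30.5% in WT cells, a ratio of 1.19 (1.14 to 1.24), so the Pvt1 interval and that of the rest did not overlap. Set against the contacts of the stretch alone, also a choice made after seeing the data, the Pvt1 body took 28.4% in Ebf1-KO cells and 23.4% in WT cells, a ratio of 1.21 (1.13 to 1.31). The 33.9 kb before Pvt1 held 673 contacts in Ebf1-KO cells and 245 in WT cells, with a ratio of 1.43 (1.24 to 1.65). Contacts per kb in the Pvt1 body were 10.1 in Ebf1-KO cells and 3.41 in WT cells, at a total that was 1.92 times deeper in Ebf1-KO cells.

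Contacts were dense at the start of Pvt1 in both genotypes. Within 5 kb of the count table's Pvt1 start there were 19.8 contacts per kb in Ebf1-KO cells and 7.90 contacts per kb in WT cells. The flanks from 5 to 15 kb had 15.5 contacts per kb in Ebf1-KO cells and 5.75 contacts per kb in WT cells. The start therefore stood 1.28 times above its flanks in Ebf1-KO cells and 1.37 times in WT cells. The fragment with the most contacts of the whole stretch, 62037125 to 62037880, ends just before the RefSeq start of Pvt1 and had 29 contacts in Ebf1-KO cells and 6 in WT cells. The fragment 62038189 to 62038425, just inside Pvt1 by RefSeq, ranked second in both genotypes, with 22 contacts in Ebf1-KO cells and 9 in WT cells. Its close neighbour 62038613 to 62039494 ranked first in WT cells with 10 contacts but had 7 in Ebf1-KO cells. The order of these fragments differed between the genotypes, although the surrounding bin ranked first in both. It rested on only 6 to 10 contacts per fragment in WT cells, so it may reflect counting error. The fragments also differed in length, at 756, 237 and 882 bases.

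Along the stretch the contacts did not fall off evenly with distance. The bin of 20 kb from 0.04 to 0.06 Mb, which holds the Pvt1 start, had the most contacts, 393 in Ebf1-KO cells and 149 in WT cells. Density fell to 4.66 contacts per kb in Ebf1-KO cells and 2.26 in WT cells from 0.5 to 0.7 Mb. A second rise followed from 0.7 to 0.86 Mb, with 9.11 contacts per kb in Ebf1-KO cells and 3.59 in WT cells. From 0.86 to 1 Mb it was 4.71 in Ebf1-KO cells and 2.61 in WT cells. Across the 49 bins the profiles had a similar shape, with a Spearman coefficient of 0.786 and a Pearson coefficient of 0.862. This is a description over bins that share the viewpoint and the pooled library of each genotype.

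**Figure D2:**
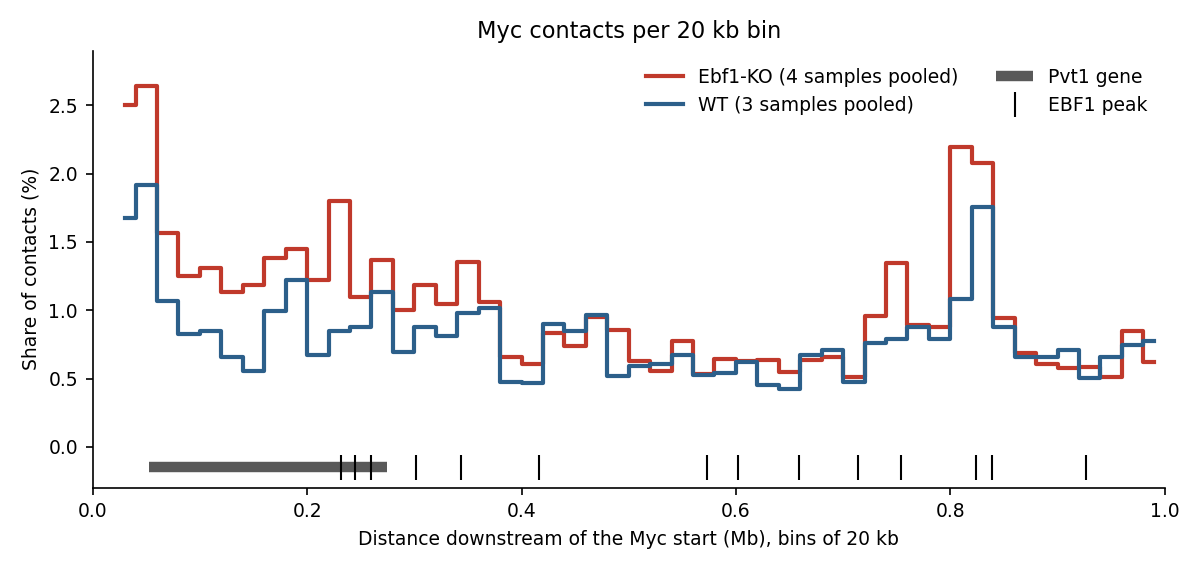
Share of contacts in percent (y axis) in each of 49 bins of 20 kb against distance downstream of the Myc start in Mb (x axis), for Ebf1-KO cells (red) and WT cells (blue). The grey bar is Pvt1 and the black ticks are the 14 EBF1 peaks; both profiles are highest next to Myc and rise again near 0.82 Mb.

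All 49 bins had at least 20 contacts over both genotypes, the minimum used for bins. Of these, 9 bins (18.4%) were higher in Ebf1-KO cells past a 1.5-fold ratio of shares, where the background over the 146 bins of chromosome 15 with that minimum was 6.85%. None of the 49 was lower past 1.5-fold, where the background was 21.9%. Of the 97 such bins outside the stretch, 1 was higher and 32 were lower. The ratios ran from 0.778 to 2.14 with a median of 1.19, and 39 of 49 were above 1. In 16 bins the counting interval lay wholly above 1, and in 0 wholly below. Of the 146 background bins, which include these 49, 60 were above 1. Their interval lay wholly above 1 in 17 and wholly below in 24. Of the 9 higher bins, 6 lay between 0.08 and 0.24 Mb, all inside Pvt1. In comparison, 1 bin of 45 was higher and 6 were lower from 1 to 2 Mb downstream, and 0 of 42 were higher and 24 lower upstream.

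The bins with the largest ratios stood in 2 places. The bin from 0.14 to 0.16 Mb, in Pvt1, had 176 contacts in Ebf1-KO cells and 43 in WT cells, a ratio of 2.14 (1.53 to 2.98). The bin from 0.22 to 0.24 Mb, also in Pvt1, had 268 contacts in Ebf1-KO cells and 66 in WT cells, a ratio of 2.12 (1.62 to 2.77). The bin from 0.80 to 0.82 Mb had 326 contacts in Ebf1-KO cells and 84 in WT cells, a ratio of 2.02 (1.60 to 2.57). The next bin, from 0.82 to 0.84 Mb, had 309 contacts in Ebf1-KO cells and 136 in WT cells, and its ratio of 1.19 had an interval that included 1 (0.971 to 1.45). In WT cells the second rise was therefore highest in the farther of these neighbouring bins, whereas in Ebf1-KO cells both were about equally high. The 3 smallest ratios, 0.778, 0.800 and 0.816, belonged to bins between 0.90 and 1 Mb, and each interval included 1.

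**Figure D3:**
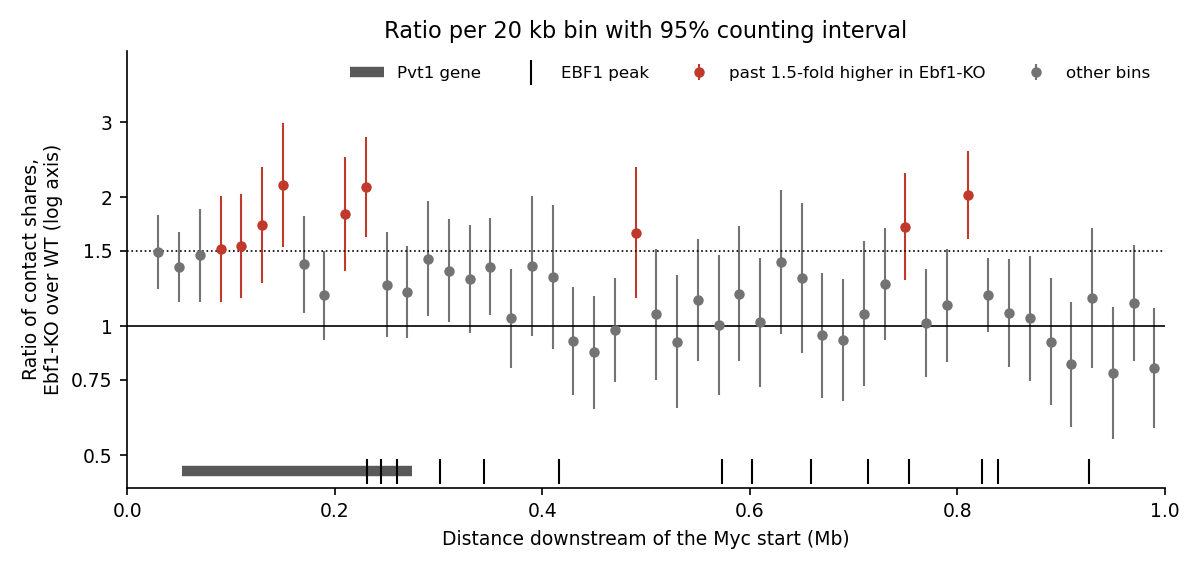
Ratio of contact shares, Ebf1-KO over WT (y axis, log scale), in each bin of 20 kb against distance downstream of the Myc start in Mb (x axis), with 95% counting intervals. Red points are the 9 bins past 1.5-fold (dotted line), of which 6 lie over Pvt1 (grey bar); black ticks are EBF1 peaks.

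Single fragments carried few contacts each. The median of listed fragments was 3 contacts in Ebf1-KO cells and 2 in WT cells, and the highest was 29 in Ebf1-KO cells and 10 in WT cells. The 10 fragments with the most contacts held 2.69% of the stretch's contacts in Ebf1-KO cells and 2.75% in WT cells. Listed fragments covered 92.6% of its bases in Ebf1-KO cells and 76.8% in WT cells. Of the fragments listed in WT cells 93.1% were also listed in Ebf1-KO cells, and of those listed in Ebf1-KO cells 70.4% were also listed in WT cells. Counting fragments in place of contacts gave a ratio of 0.967 (0.912 to 1.03) for the stretch, at unequal depth. With the whole Ebf1-KO profile thinned to the 7758 contacts of WT cells, 1542 fragments of the stretch would be expected, against the 1390 listed in WT cells. That is 36.1% of all fragments expected in Ebf1-KO cells and 30.0% of those listed in WT cells, a ratio of 1.20. The share of fragments was thus higher in Ebf1-KO cells once depth was matched, a comparison added after seeing the data. It reuses the same contacts, so it is not separate support for the share of contacts, and it has no interval. It was not made for the Pvt1 body or the EBF1 peaks.

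Some fragments near the second rise were among the highest of Ebf1-KO cells but not of WT cells. The fragment 62730859 to 62731429, 746 kb from the Myc start, had 21 contacts in Ebf1-KO cells and 1 in WT cells. The fragment 62799913 to 62801094, at 815 kb, had 20 contacts in Ebf1-KO cells and 2 in WT cells. The fragment 62803307 to 62804714, at 819 kb, had 19 in Ebf1-KO cells and 4 in WT cells. These 3 were named because they were among the 5 highest of Ebf1-KO cells, with ties, so a high count there was part of the choice. The other fragments of that list beside those at the Pvt1 start lay at 20.1 kb, with 19 contacts in Ebf1-KO cells and 6 in WT cells, and at 42.7 kb, with 19 in Ebf1-KO cells and 4 in WT cells. The 13 fragments chosen likewise for WT cells had 3 to 22 contacts in Ebf1-KO cells and 8 to 10 in WT cells. Of these, a fragment at 838 kb, 62823077 to 62823941, had 8 contacts in Ebf1-KO cells and 8 in WT cells.

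EBF1 binding in the pre-B line was found at 14 places in the stretch, which is 14.3 peaks per Mb, against 6.96 per Mb over the listed span of chromosome 15. The part from 1 to 2 Mb downstream had 11 peaks per Mb, and the upstream mirror had 2.04 per Mb. No peak lay in the first 212 kb of the stretch, which held the bin with the most contacts in both genotypes and most of the higher bins. The bin from 0.82 to 0.84 Mb, with 2 peaks, had rank 2 by contacts in WT cells and rank 4 in Ebf1-KO cells. The first peak stood 232 kb from the Myc start. Pvt1 held 3 of the 14 peaks, all towards its far end. Scores, which are the authors' own value per peak, ran from 21 to 215 with a median of 42, against a median of 41 over all 17230 peaks. From 1 to 2 Mb downstream the median score was 67 and the highest was 240. The strongest peak of the stretch, 62698708 to 62699028, lay between genes 714 kb from the Myc start. It had a score of 215 and a fold of 52.2 over control in the authors' list. The next was 62401096 to 62401416, at 416 kb, with a score of 106 and a fold of 32.6. The third, 62216714 to 62217034, lay in Pvt1 next to Macroh2a3 with a score of 69. Myc itself had 2 peaks within 20 kb of its start, outside the stretch, at 1.5 kb upstream with a score of 103 and 5.70 kb downstream with a score of 19.

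Contacts near the EBF1 peaks were higher in Ebf1-KO cells, with a ratio below that of the rest of the stretch and overlapping intervals. Within 5 kb of the peaks' centres there were 1134 contacts in Ebf1-KO cells and 493 in WT cells. Their share was 7.63% in Ebf1-KO cells (7.20 to 8.06) and 6.35% in WT cells (5.82 to 6.92), a ratio of 1.20 (1.08 to 1.33). Elsewhere in the stretch the ratio was 1.29 (1.24 to 1.34). The flanks from 5 to 15 kb, a comparison chosen after seeing the data, had a ratio of 1.44 (1.32 to 1.57). Among the stretch's own contacts, fragments near peaks took 15.0% in Ebf1-KO cells (14.2 to 15.9) and 16.0% in WT cells (14.7 to 17.3), on 14.3% of its bases. Density near peaks stood 1.09 times above the flanks in Ebf1-KO cells (1.01 to 1.17) and 1.30 times above them in WT cells (1.16 to 1.46). The narrowest setting, fragments that overlap a peak, gave a ratio of 0.982 (0.700 to 1.38). That interval includes both 1 and the 1.20 found within 5 kb, so no direction can be told at that setting.

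Single peaks varied. Of the 14 peaks, 11 had a ratio above 1 within 5 kb, 2 were past 1.5-fold, and 3 had a counting interval wholly above 1. Of the 49 bins of the stretch, which are wider, 39 were above 1, 9 were past 1.5-fold and 16 had such an interval. These counts therefore do not set the peaks apart from the stretch. The ratios of the peaks ran from 0.826 to 1.64. The first peak, at 0.232 Mb in Pvt1, had 116 contacts within 5 kb in Ebf1-KO cells and 37 in WT cells, a ratio of 1.64 (1.13 to 2.37). The third peak of Pvt1, 62245252 to 62245572, had 97 contacts in Ebf1-KO cells and 33 in WT cells, a ratio of 1.53 (1.03 to 2.27). At the strongest peak there were 63 contacts in Ebf1-KO cells and 30 in WT cells, a ratio of 1.10 (0.710 to 1.69), and at the second strongest 46 in Ebf1-KO cells and 21 in WT cells, a ratio of 1.14 (0.683 to 1.91). The third strongest is the first peak of Pvt1, which had the largest ratio.

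The second rise, from 0.7 to 0.86 Mb, held 4 peaks, with none in the bin from 0.80 to 0.82 Mb. One was the strongest of the stretch at 0.714 Mb, and one at 0.754 Mb had a ratio of 1.41 (0.954 to 2.09). The others were a close pair in the bin from 0.82 to 0.84 Mb. In that pair, the peak at 62809310 to 62809630, with a score of 48, had 163 contacts within 5 kb in Ebf1-KO cells and 62 in WT cells, a ratio of 1.37 (1.03 to 1.84). The peak at 62824052 to 62824372, with a score of 47, had 119 contacts in Ebf1-KO cells and 70 in WT cells, a ratio of 0.887 (0.661 to 1.19). The farther peak of the pair had the highest density of any EBF1 peak in WT cells, 7.00 contacts per kb, and the nearer one had the highest in Ebf1-KO cells, 16.3 contacts per kb. The remaining peaks named by score had wider intervals. Those at 0.302 and 0.344 Mb had ratios of 1.24 and 1.20, those at 0.573 and 0.659 Mb had ratios of 0.826 and 1.18, and all 4 intervals included 1. In bins of 20 kb, the median ratio was 1.25 over the 13 bins with a peak and 1.17 over the 36 without one, and 2 of the 13 and 7 of the 36 were higher past 1.5-fold.

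**Figure D4:**
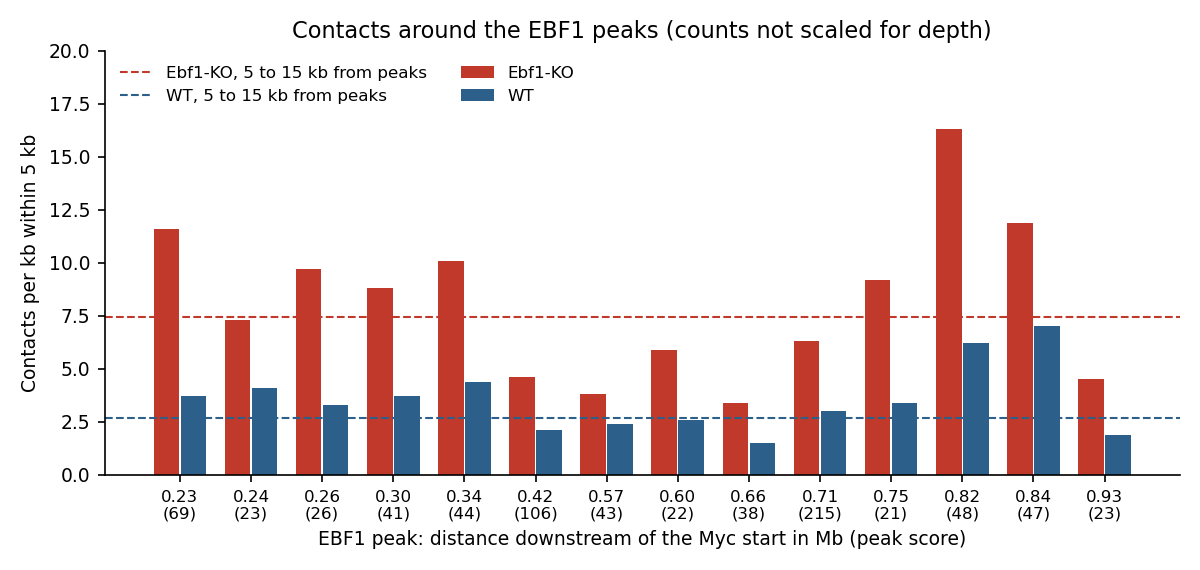
Contacts per kb within 5 kb of each of the 14 EBF1 peaks (y axis; counts not scaled for depth) in Ebf1-KO cells (red) and WT cells (blue), with the peaks ordered by distance from the Myc start in Mb and their scores in brackets (x axis). Dashed lines show the density from 5 to 15 kb around all peaks, 7.46 in Ebf1-KO cells and 2.71 in WT cells; the highest bars stand at the neighbouring peaks at 0.82 and 0.84 Mb.

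RNA of the genes in the stretch was read from 14 libraries, in 7 groups of 2, with 16.1 to 42.1 M exon counts each. The count table holds 2 of the genes, Pvt1 and H2afy3, an older symbol of Macroh2a3. Pvt1 RNA had 422 and 233 counts in Ebf1-KO cells and 453 and 710 counts in WT cells. Scaled, that was 19.3 and 8.05 CPM in Ebf1-KO cells, against 23.5 and 40.6 CPM in WT cells. Both Ebf1-KO libraries were below both WT libraries. With 2 libraries per group such an order can easily arise by chance. Its share over all genes was not counted, here or for H2afy3 and Myc below. The difference did not pass the test: log2 fold change -1.23 ± 0.50 (SE), adjusted p = 0.127 by edgeR's quasi-likelihood test. In that comparison 14.7% of the 14550 genes tested passed at an adjusted p under 0.05. A tag in the column names parts the libraries by replicate number, and within it the log2 difference was -0.28 for replicate 1 and -2.33 for replicate 2. Leaving out single libraries moved the log2 fold change between -1.98 and -0.76. The higher contact share of the Pvt1 body in Ebf1-KO cells therefore stood beside a Pvt1 RNA level with a lower mean there. The RNA cells carried empty vector, and the cells of the contact profiles are not labelled as carrying one.

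Neither vector gave a Pvt1 change that passed the test in Ebf1-KO cells. With Ebf1, Pvt1 had 11.2 and 12.2 CPM, against 19.3 and 8.05 CPM in Ebf1-KO cells with empty vector, a log2 fold change of -0.22 ± 0.50 (SE, adjusted p = 0.999 by edgeR), where 2.97% of genes passed. Without replicate 1 of Ebf1-KO the sign turned, to 0.52, and within the tag the log2 differences were -0.78 and 0.59. With Pax5, Pvt1 had 24.4 and 14.9 CPM, against the same 19.3 and 8.05 CPM with empty vector, a log2 fold change of 0.52 ± 0.50 (SE, adjusted p = 0.689 by edgeR), where 4.08% of genes passed. Within the tag the differences were 0.34 and 0.88. Both comparisons share the Ebf1-KO libraries with empty vector. Over all groups the mean level of Pvt1 was 19.7 ± 6.70 CPM in Ebf1-KO cells with Pax5, 11.7 ± 0.673 in Ebf1-KO cells with Ebf1 and 13.7 ± 7.96 in Ebf1-KO cells (SD, n = 2 each). It was 14.6 ± 0.240 CPM in Pax5-KO cells with Pax5, 6.62 ± 3.29 in Pax5-KO cells with Ebf1, 13.6 ± 2.12 in Pax5-KO cells and 32.0 ± 12.1 in WT cells. WT cells had the highest mean, although their lower library overlapped the higher one of Ebf1-KO cells with Pax5. Pax5-KO cells with Ebf1 had the lowest, with no overlap with the next group in order, Ebf1-KO cells with Ebf1, although its higher library, at 8.95 CPM, was above the lower one of Ebf1-KO cells with empty vector.

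H2afy3 is annotated as a transcribed pseudogene of the histone gene family macroH2A and lies within Pvt1 on the opposite strand, so its reads may be shared with Pvt1 or with related copies, since strand was not given for the counting. It had 98 and 64 counts in Ebf1-KO cells and 236 and 453 in WT cells, that is 4.48 and 2.21 CPM in Ebf1-KO cells, against 12.2 and 25.9 CPM in WT cells. Both Ebf1-KO libraries were below both WT libraries, with log2 differences of -1.43 and -3.51 within the tag. The log2 fold change was -2.51 ± 1.68 (SE, adjusted p = 0.387 by edgeR), and it passed the test when the 2 groups were fitted alone (adjusted p = 0.00978) or without the filter on low counts (0.0153). Its libraries differed widely within other groups, for example 107 and 11 counts in Ebf1-KO cells with Pax5 and 118 and 1 counts in Pax5-KO cells. With Ebf1 the log2 fold change in Ebf1-KO cells was 0.14 ± 1.60 and with Pax5 it was -0.44 ± 1.61 (SE, adjusted p = 1 and 0.946 by edgeR).

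Myc RNA, the product of the promoter at the other end of these contacts, had 143 and 187 CPM in Ebf1-KO cells, against 299 and 248 CPM in WT cells. Both Ebf1-KO libraries were the lower ones, with a log2 fold change of -0.73 ± 0.25 (SE) and an adjusted p of 0.0681 by edgeR. With the replicate number as a block it passed the threshold (adjusted p = 0.0149 by edgeR), as it did with the tag as a block over all 14 libraries (0.00996). Of 10 alternatives 5 passed, with adjusted p from 0.00996 to 0.0309, and leaving out single libraries gave 0.0791 to 0.387. Within the tag the log2 differences were -1.06 and -0.41. With Ebf1 the level in Ebf1-KO cells was 308 and 418 CPM, against 143 and 187 CPM with empty vector, a rise of 1.14 ± 0.25 on the log2 scale (SE, adjusted p = 0.0214 by edgeR). With Pax5 it was 66.8 and 84.3 CPM, against 143 and 187 CPM with empty vector, and Myc fell by 1.13 ± 0.25 on the log2 scale (SE, adjusted p = 0.0209 by edgeR). Within the tag the log2 differences were 1.10 and 1.16 with Ebf1 and -1.10 and -1.15 with Pax5. Both calls depended on which single library was left out. For the Ebf1 vector the log2 fold change of Myc then ran from 0.90 to 1.36. That call was kept only without Ebf1-KO with Ebf1 replicate 1. For the Pax5 vector the log2 fold change ran from -1.34 to -0.90. That call was kept only without Ebf1-KO replicate 1. Contacts of cells with either vector were not analysed here, so contacts and RNA can be set side by side for Ebf1-KO and WT cells only.

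**Figure D5:**
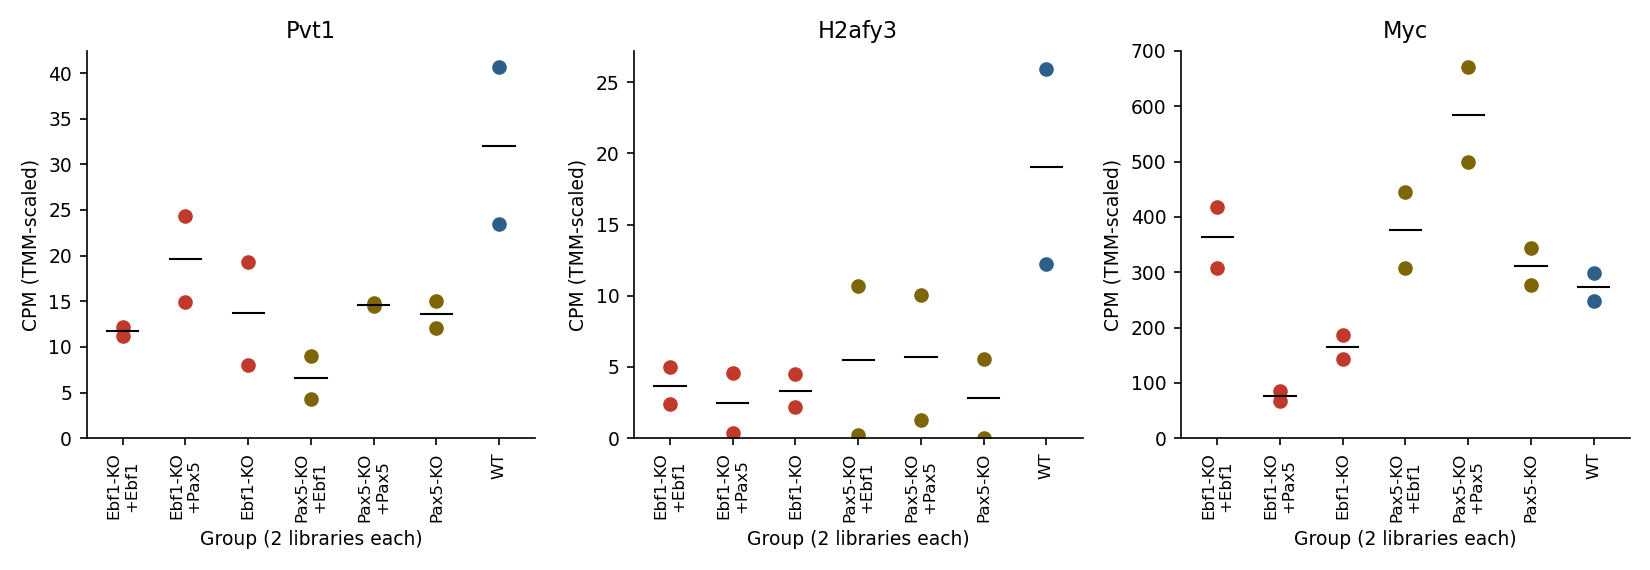
RNA level in CPM (y axis, from 0) of Pvt1, H2afy3 and Myc in the 7 groups (x axis); each point is 1 library, the black line is the group mean, and groups with no vector named carried the empty one. Pvt1 and H2afy3 have their highest group mean in WT cells, whereas Myc has its highest in Pax5-KO cells with Pax5.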

How the data were processed

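The members and gene lists were chosen with earlier results of these data known. The contact profiles deposited give, per the file headers, a whole-number count for each restriction fragment ligated to the Myc promoter fragment (transcript NM_001177354), with the samples of a genotype pooled and fragments at 0 not listed. The enzyme is not given in the sources used here. The authors' peak list gives, per the file headers, a normalized tag count (a signal), a findPeaks score and a fold change over control (a ratio) for each peak. RNA values deposited are exon read counts per gene, per the file headers. The submitters' processing notes name HiC-Pro 2.11.1, Bowtie2 2.3.5 and 2.3.4.2, STAR 2.6.0b-1 and HOMER 4.8 among the tools and mm10 as the build, without roles. Because PLAC-seq enriches H3K4me3, a count depends on the mark at either end as well as on proximity; H3K4me3 levels were not analysed here.

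Shares are contacts in a region over all listed contacts on chromosome 15 more than 0.02 Mb from the Myc start, with exact Clopper-Pearson 95% intervals; a ratio of shares has an interval from log-scale counting error. Intervals cover counting error only, since each genotype has 1 pooled profile. No molecular identifiers are known, so whether each count is a separate molecule is not known. If some are not, the intervals are too narrow even for counting error. Named were the bins of 20 kb with the 3 highest counts, the 3 largest and the 3 smallest ratios, the 5 highest fragments of each genotype with ties, and the 10 peaks with the highest score. RNA counts of 14 libraries were tested with edgeR 4.0.16 (TMM scaling, filterByExpr, a quasi-likelihood fit over 7 groups, Benjamini-Hochberg over 14550 genes, threshold 0.05), with DESeq2 as an alternative. A tag in the count table's column names differs between replicates 1 and 2 in all 7 groups, the unnumbered Pax5-KO column included, so a replicate number also marks a tag; what the tag stands for is not given in the sources used here. Separate cultures are not stated for replicates, so the p-values may reflect technical spread alone. The counting interval and the RNA test were each checked on simulated data. The simulated contacts held counting error alone, so that check does not cover the spread between samples. 0 columns were left unused. Other totals, caps, limits, peak widths, scalings, filters and left-out libraries were tried. Sequences are from RefSeq, GRCm38.p6; 2 of the 6 genes matched an entry of its promoter table.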

Additional observations from a re-analysis of the deposited data

How the results depend on the processing

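For the stretch, the ratio of 1.27 was 1.22 with a total within 2 Mb on either side, 1.18 with fragments capped at 5 contacts, 1.15 with 0.02 to 2 Mb downstream as the total, and 0.967 with fragments counted in place of contacts; the other 4 alternatives moved it little. For the Pvt1 body, the ratio of 1.55 was 1.02 with fragments, 1.37 with the cap, 1.40 with the downstream total and 1.21 with the stretch as the total. Near EBF1 peaks, the ratio of 1.20 was 0.950 with fragments, 0.982 for fragments overlapping a peak, 1.33 within 10 kb, 1.08 with the downstream total and 0.942 with the stretch as the total. The downstream and stretch totals were chosen after seeing the data. With Ebf1-KO thinned to the WT total, the fragment ratio of the stretch was 1.20. The cause of the ratio of 0.967 was not tested. Pvt1 RNA in Ebf1-KO over WT kept its sign and stayed short of the threshold in all 10 alternatives (log2 -1.98 to -0.76 with libraries left out, adjusted p from 0.0624 to 0.597 by edgeR or DESeq2). With Ebf1 over Ebf1-KO it ran from -0.70 to 0.52 with libraries left out, and with Pax5 over Ebf1-KO from 0.04 to 1.25. A lone library left in a group is assumed to vary like the other groups. The replicate block, fitted without the Pax5-KO group with empty vector, gave Pvt1 -1.34, -0.14 and 0.55 in these comparisons. A block by the tag in the column names over all 14 libraries, added after seeing the data, gave -1.34, -0.14 and 0.55 as well. Same-numbered libraries had deviations correlated at -0.04, 0.19 and 0.19. Of the Pvt1, H2afy3 and Myc calls, either block changed that of Myc in Ebf1-KO over WT alone (adjusted p = 0.0149 and 0.00996 by edgeR). H2afy3 turned sign with libraries left out, from -0.46 to 0.72 with Ebf1 over Ebf1-KO and from -3.17 to 0.44 with Pax5 over Ebf1-KO. Genes called numbered 2134 in Ebf1-KO over WT. Alternatives gave 2498 with the tag as a block, 2975 by DESeq2, 2600 without the filter and 2863 with 2 groups alone. With Ebf1 over Ebf1-KO they numbered 432, and 721 by DESeq2, 711 without the filter and 955 with 2 groups alone. With Pax5 over Ebf1-KO they numbered 594, and 916 with the tag as a block, 1238 by DESeq2 and 1002 without the filter. In each comparison fewer genes were called with single libraries left out.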
